A study of Mus musculus with 8 samples.

Results

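The phase II conjugation enzymes were described in the jejunum, a segment of the small intestine, of C3H/HeJ (C3H) and C57BL/6 (B6) mice. Members were taken by gene symbol, as every gene of the Ugt1, Ugt2 and Ugt3 (UDP-glucuronosyltransferase, UGT), Sult (sulfotransferase, SULT) and Gsta, Gstm, Gstp, Gstt, Gsto, Gstk and Gstz (glutathione transferase, GST) subfamilies, with pseudogene symbols left out. The rule used no measured value and found 64 of the 56941 genes in the count table, with 21 UGTs, 21 SULTs and 22 GSTs. Bulk RNA was sequenced from 4 C3H libraries (replicates 1, 3, 4 and 5) and 4 B6 libraries (replicates 2, 3, 4 and 5), all labelled as batch 1. Both strains were naive mice, given as 6 to 8 weeks old and kept together in shared cages for at least 8 weeks before harvest. Separate mice per library are not stated in the labels, and p-values then measure spread between libraries that may be technical.

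Phase II enzymes attach a polar group to drugs, dietary compounds, bile pigments, steroids and reactive electrophiles, which makes them easier to export from the cell. UGTs transfer glucuronic acid from UDP-glucuronate in the endoplasmic reticulum, SULTs transfer sulfate from the donor PAPS in the cytosol, and GSTs join glutathione to electrophiles. Enterocytes carry all 3 systems, so that part of what is swallowed is conjugated before it reaches the portal blood.

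Counts totalled 37205896 to 58251332 per library. Levels are given as CPM, counts scaled to a common library total with TMM factors, and strain differences as log2 fold changes of C3H over B6 with their standard error (SE), from edgeR's quasi-likelihood test with Benjamini-Hochberg adjustment over 18025 genes. A gene is called changed at an adjusted p under 0.05. Marker levels fit a tissue rich in enterocytes and were not used to place its segment: 10 enterocyte markers summed to 58259, 66080, 80387 and 93835 CPM in C3H, against 65973, 75305, 86313 and 72638 CPM in B6, and 0 of the 10 were called. The 4 libraries richest in pancreatic acinar transcripts were C3H 3, C3H 5, B6 2 and B6 3, where 10 acinar markers summed to 2899, 1294, 249 and 78.4 CPM, against 7.26 to 58.8 CPM in the others. The part of pancreatic RNA in the results below was not tested beyond leaving these libraries out.

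Of the 64 members, 38 passed the filter on low counts and were tested. In C3H 21 were higher and 1, Gsta1, was lower, and 16 were not called. Across all 18025 genes tested, 21.4% were called, 11.3% higher and 10.1% lower in C3H. The classes differed in how many of their tested members were called higher, with 9 of 11 UGTs, 1 of 7 SULTs and 11 of 20 GSTs. The median log2 fold change was 1.15 for the tested UGTs, −0.02 for the SULTs and 0.43 for the GSTs, against 0.03 over all genes tested. At least 2-fold changes were called in 10 members higher and 1 lower in C3H, where 4.31% and 3.56% of all genes passed the same rule. All 4 C3H libraries lay above all 4 B6 libraries for 17 of the 38 tested members, and below them for 3 (Gsta1, Sult1b1 and Sult4a1), against 12.7% and 11.7% of all genes tested, or 24.4% in either direction. Without the 4 libraries richest in pancreatic transcripts, which leaves 2 per strain, all 22 called members kept their direction and 8 were still called (Ugt1a9, Ugt1a6a, Ugt2b5, Ugt2b36, Sult1c2, Gsta1, Gsta2 and Gsta3). The share of all genes called in that smaller fit is not given here, so the 8 cannot be set beside it. In bulk RNA a change in the share of expressing cells and a change in RNA per cell cannot be told apart.

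**Figure D1:**
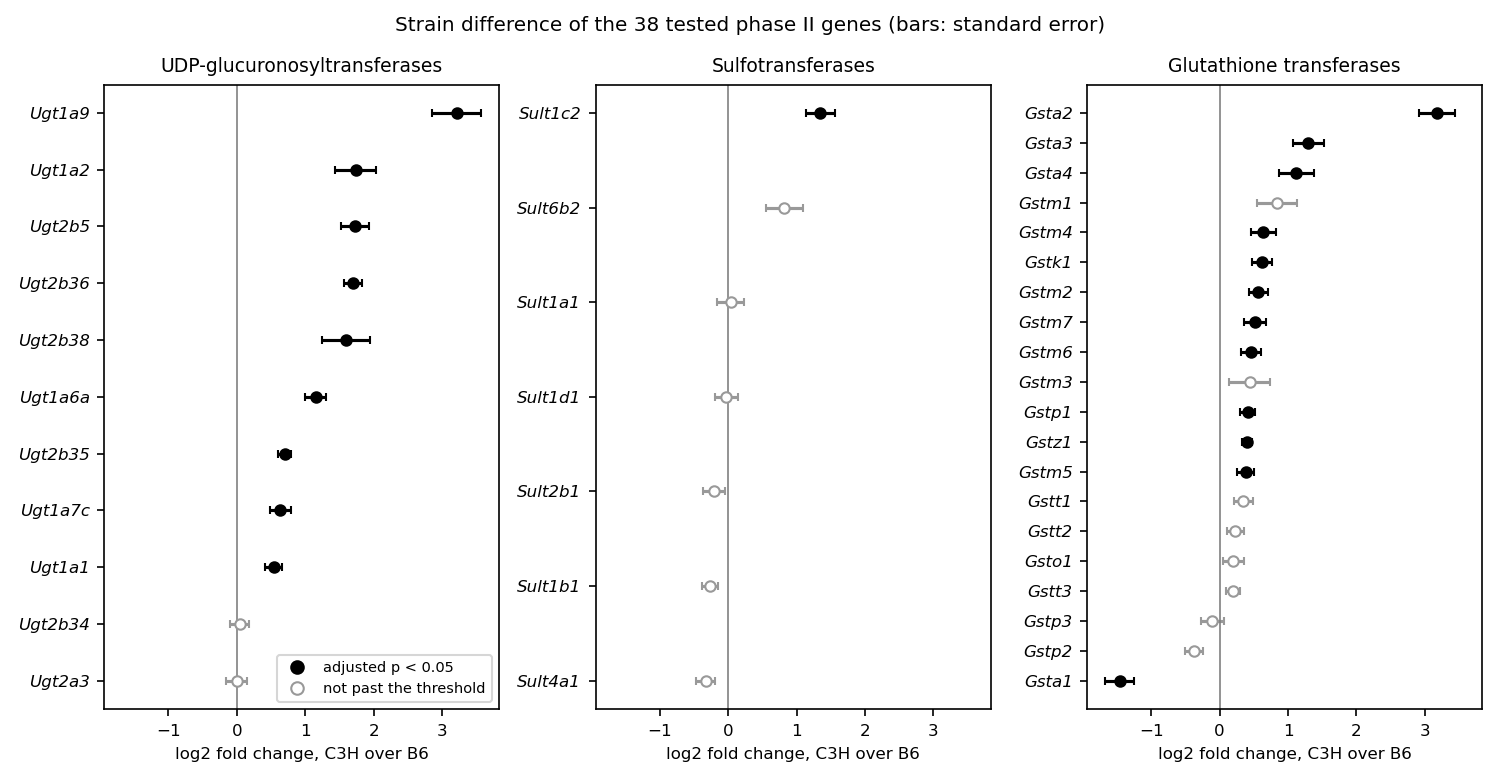
Log2 fold change of C3H over B6 (x axis) with its standard error for each of the 38 tested members, by class; filled points passed an adjusted p of 0.05. The UGT column lies at or right of 0 with 9 of 11 filled, the SULT column has 1 filled point, and among the GSTs Gsta1 is the filled point left of 0.

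Summed over members, the class totals differed less between strains than many single genes did. The UGTs summed to 1704, 2036, 2339.8 and 2578 CPM in C3H, against 1754, 1782, 1988 and 1619.6 CPM in B6, a ratio of means of 1.21. The SULTs summed to 1164, 1389.8, 1763 and 2009.7 CPM in C3H, against 1550.2, 1392, 1655 and 1487 CPM in B6, a ratio of 1.04. The GSTs summed to 1965, 1971, 2317 and 2789.7 CPM in C3H, against 1459, 1721, 1434 and 2309 CPM in B6, a ratio of 1.31. The strains overlapped in all 3 sums. Within C3H the class totals and the enterocyte marker sum had the same order of libraries, lowest in replicate 1 and highest in replicate 5. C3H 5 was the highest C3H library for 31 of the 38 tested members (81.6%), against 31.2% of all genes, and the part of enterocyte content in this was not tested.

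**Figure D2:**
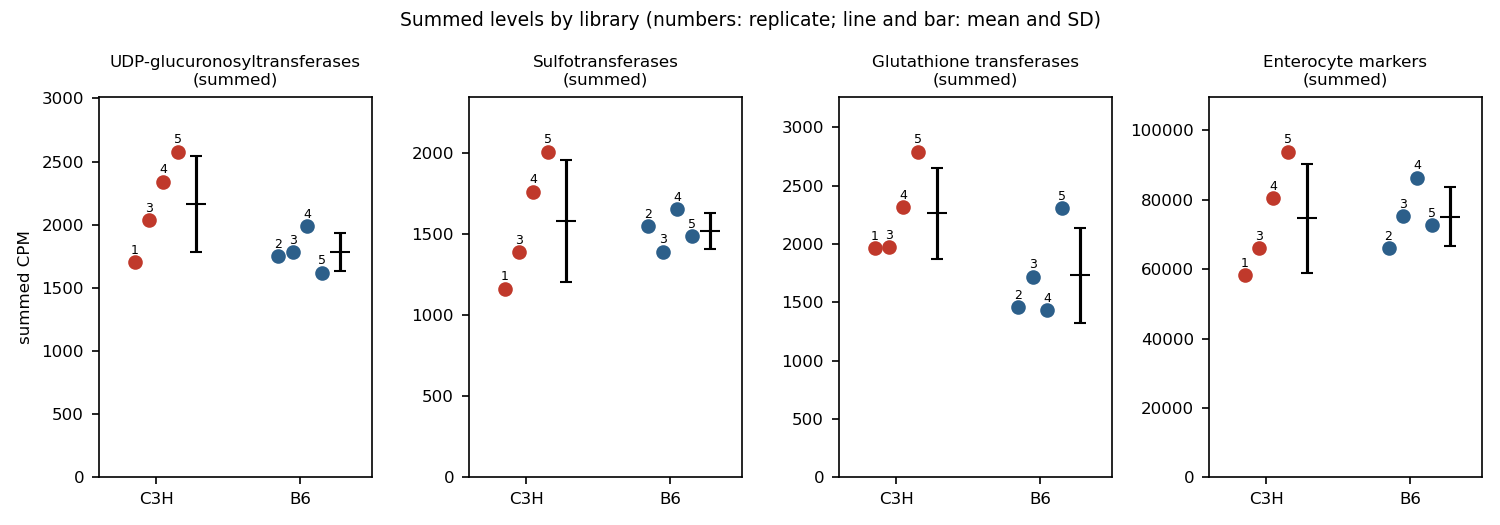
Summed CPM (y axis, from 0) of the UGT, SULT and GST members and of the enterocyte markers in each library, with C3H left of B6; points carry their replicate number, and the line and bar give the mean and SD of 4 libraries. In all 4 panels C3H 1 is the lowest and C3H 5 the highest C3H library, while in B6 replicate 5 is on top in the GST panel and replicate 4 in the other 3.

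The Ugt1 locus on chromosome 1 is a single gene complex in which each enzyme has its own promoter and first exon, spliced to shared downstream exons. Ugt1a1 conjugates bilirubin, and Ugt1a6 enzymes conjugate simple phenols. All 5 tested Ugt1 genes were higher in C3H, with no overlap between strains. Ugt1a9, whose human counterpart conjugates propofol and other phenols, had 14.4, 18.5, 16.8 and 39.8 CPM in C3H, against 2.55, 1.20, 2.97 and 2.84 CPM in B6. Its log2 fold change was 3.21 (SE 0.36, adjusted p = 7.93e-05), and 2.41 (adjusted p = 2.91e-05) without the 4 libraries richest in pancreatic transcripts. Even the lowest C3H library was well above the highest B6 library, and C3H 5 stood above the other C3H libraries.

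Ugt1a6a had 8.06, 7.81, 5.93 and 5.88 CPM in C3H, against 3.64, 2.84, 2.72 and 3.29 CPM in B6, with a log2 fold change of 1.15 (SE 0.15, adjusted p = 0.000228). Ugt1a2 was scarce, with 18 to 33 counts per library in C3H, against 4 to 10 in B6, and a log2 fold change of 1.74 (SE 0.30, adjusted p = 0.00179). The abundant members of the locus changed less than these scarce ones. Ugt1a7c had 219, 276, 333 and 391 CPM in C3H, against 194, 182, 209 and 197 CPM in B6, with a log2 fold change of 0.64 (SE 0.15, adjusted p = 0.0114). Ugt1a1 had 136, 158, 164 and 185 CPM in C3H, against 103, 112, 132 and 94.3 CPM in B6, with a log2 fold change of 0.54 (SE 0.12, adjusted p = 0.00857). C3H 1 lay close to the highest B6 library for both genes. Counts of Ugt1a9 per count of Ugt1a1 were 0.106, 0.117, 0.102 and 0.215 in C3H, against 0.0247, 0.0107, 0.0225 and 0.0301 in B6, so Ugt1a9 differed more than Ugt1a1. For the abundant Ugt1a7c the same ratio overlapped between strains, at 1.61, 1.75, 2.03 and 2.11 in C3H, against 1.88, 1.62, 1.58 and 2.09 in B6.

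The 2 promoters at the ends of that range of change are shown because each reads a different first exon into the same downstream exons. The RefSeq windows (GRCm38.p6, plus strand) span 250 bases before to 50 bases after the annotated start, at chr1:88070529-88070828 for Ugt1a9 and chr1:88211709-88212008 for Ugt1a1, and capitals mark the bases from the start on.
Ugt1a9: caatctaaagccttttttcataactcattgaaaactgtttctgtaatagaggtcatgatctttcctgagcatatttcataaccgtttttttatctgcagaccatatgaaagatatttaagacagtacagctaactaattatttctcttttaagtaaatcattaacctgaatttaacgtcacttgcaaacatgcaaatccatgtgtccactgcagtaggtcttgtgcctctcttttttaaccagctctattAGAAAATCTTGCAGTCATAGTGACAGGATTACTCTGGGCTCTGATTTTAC
Ugt1a1: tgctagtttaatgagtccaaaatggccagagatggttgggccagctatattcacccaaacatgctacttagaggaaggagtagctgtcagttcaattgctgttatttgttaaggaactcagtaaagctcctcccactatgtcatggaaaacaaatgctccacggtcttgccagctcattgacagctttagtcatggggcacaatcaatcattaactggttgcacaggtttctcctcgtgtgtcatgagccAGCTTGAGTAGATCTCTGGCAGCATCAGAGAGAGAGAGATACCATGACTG
Of 50-base windows in the annotated transcripts, 62.0% in Ugt1a9 and 58.2% in Ugt1a1 also occur in other genes, as the shared exons do. Reads from those shared exons carry no letters that place them in a single Ugt1 gene.

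The Ugt2 genes lie in a cluster on chromosome 5 beside 3 Sult1 genes, and Ugt2b enzymes conjugate steroids, bile acids and many drugs. Of 6 tested, 4 were higher in C3H and 2 were not called. Ugt2b5 had 106, 122, 127 and 192 CPM in C3H, against 33.9, 33.5, 47.2 and 50.5 CPM in B6, with a log2 fold change of 1.73 (SE 0.20, adjusted p = 9.55e-05). Ugt2b36 had 28.2, 28.1, 29.1 and 37.7 CPM in C3H, against 8.12, 8.45, 11.2 and 9.97 CPM in B6, with a log2 fold change of 1.70 (SE 0.13, adjusted p = 4.04e-06). They were 3.31-fold and 3.26-fold higher, with a wide gap between the strains. Ugt2b35 had 90.1, 102, 111 and 110.1 CPM in C3H, against 57.3, 64.4, 71.0 and 61.6 CPM in B6, with a log2 fold change of 0.70 (SE 0.10, adjusted p = 0.000357). Ugt2b38 had 3.55, 7.62, 11.1 and 13.8 CPM in C3H, against 3.82, 2.94, 2.14 and 3.01 CPM in B6, with a log2 fold change of 1.60 (SE 0.35, adjusted p = 0.00685). The strains overlapped for Ugt2b38, where C3H 1 fell within the B6 range.

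The UGT with the highest CPM did not share this change. Ugt2b34 had 896, 1080.5, 1251 and 1297 CPM in C3H, against 1102, 1127, 1192 and 973 CPM in B6, with a log2 fold change of 0.04 (SE 0.13, adjusted p = 0.870). Ugt2a3, whose human counterpart conjugates bile acids, had 202, 235, 290.1 and 304 CPM in C3H, against 244, 247, 317 and 224 CPM in B6, with an adjusted p of 0.993. Both genes had overlapping strains. On the scale of CPM per kilobase of exon, Ugt2b34 made up 39.4% of the summed UGT level in C3H and 48.8% in B6. With the same CPM divided by only the exon bases that no other gene shares, that share was 23.5% in C3H and 31.2% in B6. Ugt1a1, with 385 such bases of 2224, then ranked first in both strains, at 418 CPM per kilobase in C3H and 287 in B6. That scale suits only counts without reads from shared exons. Ugt1a10, where 63.0% of windows also occur in other genes, had 0 counts in all 8 libraries. Reads of the shared exons were thus not counted for every Ugt1 gene. How they were otherwise handled is not stated, so the order between UGTs is uncertain.

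Ugt2b5 and Ugt2b38 are 97.0% identical over their coding sequences, and 41.7% and 37.4% of their 50-base windows also occur in other genes. The coding stretch from base 1422 to 1511 of Ugt2b5 (GENCODE M21, 5′ to 3′) is shown with differing bases in capitals. The pair differ there at 10 of 90 bases, and no gap-free stretch of that length holds more differences.
Ugt2b5: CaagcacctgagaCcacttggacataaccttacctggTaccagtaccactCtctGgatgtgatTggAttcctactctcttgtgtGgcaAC
Ugt2b38: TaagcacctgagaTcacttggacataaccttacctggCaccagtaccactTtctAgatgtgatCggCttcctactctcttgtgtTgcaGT
Summed with their relative Ugt2b37, which had 0 counts in C3H and 1 in B6, the pair reached 109.8, 129, 138 and 206 CPM in C3H, against 37.7, 36.4, 49.4 and 53.5 CPM in B6. The sum therefore differed in the same direction and by a similar ratio, 3.30, as Ugt2b5 alone.

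**Figure D3:**
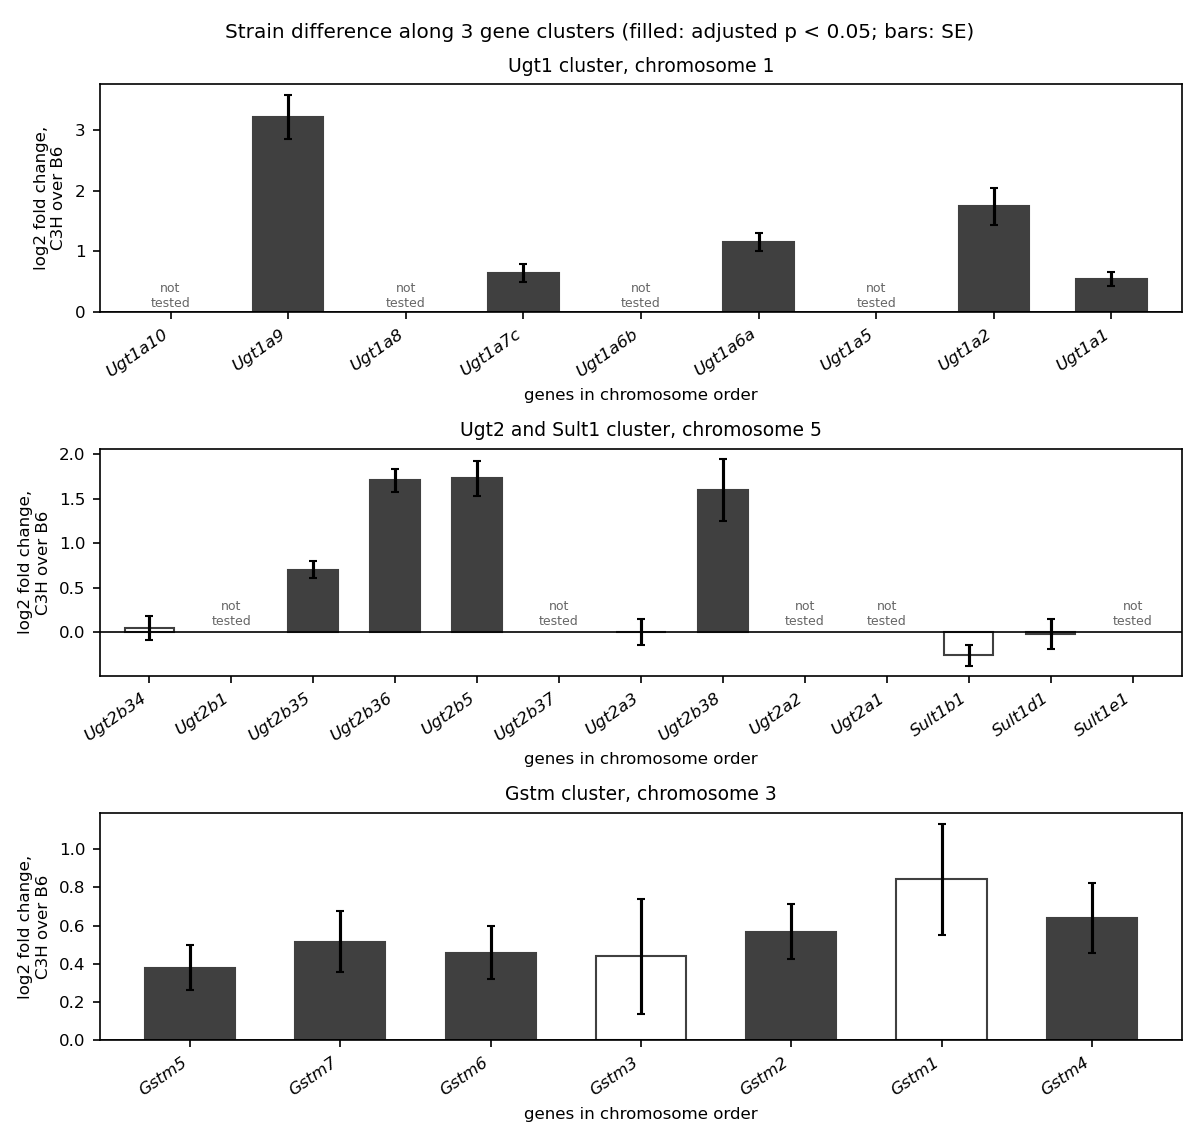
Log2 fold change of C3H over B6 (y axis, bars with SE) for members in chromosome order in the Ugt1, Ugt2 with Sult1, and Gstm clusters; filled bars passed an adjusted p of 0.05 and genes too low to test are marked. On chromosome 5 the 4 filled bars are Ugt2b genes, with Ugt2b34, Ugt2a3 and the Sult1 bars unfilled near 0, and the 7 Gstm bars all point up with 5 filled.

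The SULTs were the class with the fewest calls. Sult1c2 was the 1 of 7 tested that was higher in C3H, at 2.53, 2.07, 2.76 and 3.30 CPM in C3H, against 0.743, 1.44, 0.960 and 1.02 CPM in B6, with a log2 fold change of 1.35 (SE 0.22, adjusted p = 0.000981). Its level was low and its strains did not overlap. The abundant SULTs were not called. Sult1b1, which sulfates thyroid hormones and small phenols, had 456, 520.2, 615 and 625 CPM in C3H, against 710.0, 638, 654 and 654 CPM in B6, with a log2 fold change of −0.26 (SE 0.12, adjusted p = 0.140). Sult6b2 had 295, 371, 498 and 724 CPM in C3H, against 226, 197, 376 and 271 CPM in B6, with a log2 fold change of 0.82 (SE 0.27, adjusted p = 0.0534). All C3H libraries lay below B6 for Sult1b1, while Sult6b2 overlapped and passed the threshold without C3H 1 (adjusted p = 0.0183) or without B6 4.

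Sult1d1, a sulfotransferase of catecholamines in the mouse, had 266, 315, 439 and 408 CPM in C3H, against 429, 315, 394 and 314 CPM in B6, with a log2 fold change of −0.02 (SE 0.17, adjusted p = 0.940). Sult2b1, which sulfates cholesterol and pregnenolone, had 139.6, 174, 203 and 245 CPM in C3H, against 179, 236, 223 and 241 CPM in B6, with an adjusted p of 0.412. Sult1a1, a phenol sulfotransferase, averaged 4.16 CPM in C3H and 4.06 CPM in B6, and Sult4a1, known from the brain, averaged 1.32 CPM in C3H and 1.66 CPM in B6 with an adjusted p of 0.131. Per kilobase of exon, Sult6b2 led the class in C3H at 219 CPM per kilobase, ahead of Sult1b1 at 199, while in B6 Sult1b1 led at 239, followed by Sult1d1 at 148 and Sult6b2 at 124. All 8 Sult2a genes, steroid and bile acid sulfotransferases of the liver, had 0 counts in all 8 libraries, as did Sult3a1 and Sult3a2.

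**Figure D4:**
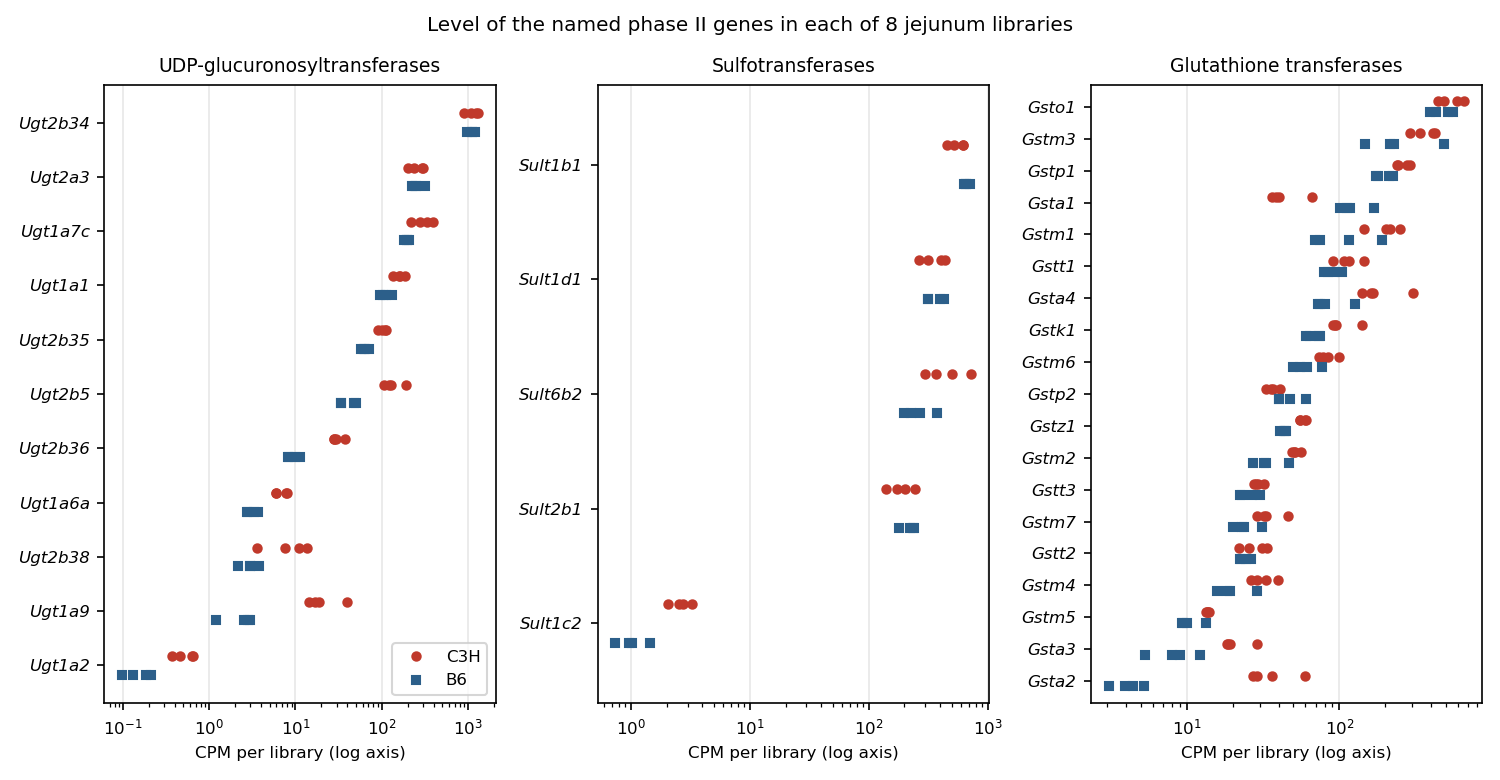
CPM in each library (x axis, log scale) for the 35 members with a call or a mean of at least 5 CPM in either strain, by class, with C3H circles above B6 squares. The C3H circles lie right of the B6 squares for Ugt1a9, Ugt2b5, Ugt2b36 and Gsta2, left of them for Gsta1 and Sult1b1, and among them for Ugt2b34 and Sult1d1.

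Alpha-class GSTs reduce lipid peroxides and conjugate their breakdown products. All 4 Gsta genes were called, 3 higher and 1 lower in C3H. Gsta4, which clears the lipid aldehyde 4-hydroxynonenal, had 141, 161, 166 and 304 CPM in C3H, against 74.7, 80.1, 72.1 and 127 CPM in B6, with a log2 fold change of 1.12 (SE 0.25, adjusted p = 0.00824). Gsta3, known in mice for conjugating the aflatoxin epoxide, had 19.2, 18.6, 18.4 and 28.9 CPM in C3H, against 5.34, 8.06, 8.99 and 12.1 CPM in B6, with a log2 fold change of 1.29 (SE 0.23, adjusted p = 0.00181). Both had a high library, replicate 5, in each strain, and no overlap. They share 0% and 0.273% of their 50-base windows with other genes.

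Gsta2 and Gsta1 moved in opposite directions. Gsta2 had 27.4, 36.1, 28.8 and 59.5 CPM in C3H, against 4.43, 3.94, 3.08 and 5.29 CPM in B6, with a log2 fold change of 3.18 (SE 0.26, adjusted p = 6.95e-06). Gsta1 had 38.8, 40.1, 36.2 and 66.2 CPM in C3H, against 112, 117, 101 and 169 CPM in B6, with a log2 fold change of −1.46 (SE 0.21, adjusted p = 0.000502). The strains were far apart for both genes. Counts of Gsta2 per count of Gsta1 ran from 0.706 to 0.901 in C3H, against 0.0306 to 0.0397 in B6.

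The fall of Gsta1 stood beside a rise of near-identical gene models. Of its 50-base windows, 90.5% also occur in other genes, 75.7% in Gm3776, a neighbouring model on chromosome 9 whose coding sequence matches Gsta1 at 667 of 669 bases. Gm3776, which its symbol keeps out of the 64 members, had 6685, 6750, 5119 and 8106 counts in C3H, against 866, 839, 1064 and 1646 counts in B6, which was 6.49-fold higher in C3H (adjusted p = 3.62e-06). Gm10639, another model of the cluster, had 601, 714, 476 and 821 counts in C3H, against 17, 41, 32 and 65 counts in B6. Gm3776 thus took 3.23 to 3.61 counts for each count of Gsta1 in C3H, and 0.176 to 0.206 in B6. The stretch from base 575 to 664 of the Gsta1 coding sequence (GENCODE M21, 5′ to 3′) shows how little separates the copies, with differing bases in capitals. No gap-free stretch of that length holds more differing positions among these 3 genes.
Gsta1: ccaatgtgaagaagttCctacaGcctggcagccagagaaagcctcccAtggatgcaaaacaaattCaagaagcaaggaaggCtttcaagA
Gm3776: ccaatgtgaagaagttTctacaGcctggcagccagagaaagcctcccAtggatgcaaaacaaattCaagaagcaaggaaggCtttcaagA
Gsta2: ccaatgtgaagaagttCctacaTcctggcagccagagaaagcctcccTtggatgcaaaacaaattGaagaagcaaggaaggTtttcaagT
In this stretch Gm3776 differs from Gsta1 at 1 base and Gsta2 at 5. Summed over Gsta1, Gsta2, Gm3776 and Gm10639, counts reached 209, 219, 208 and 365 CPM in C3H, against 139.6, 142, 124 and 206 CPM in B6, a ratio of means of 1.64. The direction of Gsta1 alone was thus opposite to that of the sum, in which C3H 4, its lowest library, and B6 5 were nearly level. Of the 50-base windows of Gsta2, 49.8% also occur in other genes, and its coding sequence is 98.5% identical to that of Gm10639. How reads common to several copies were assigned is not given in the sources used here, so the calls for Gsta1 and Gsta2 as single genes are uncertain.

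**Figure D5:**
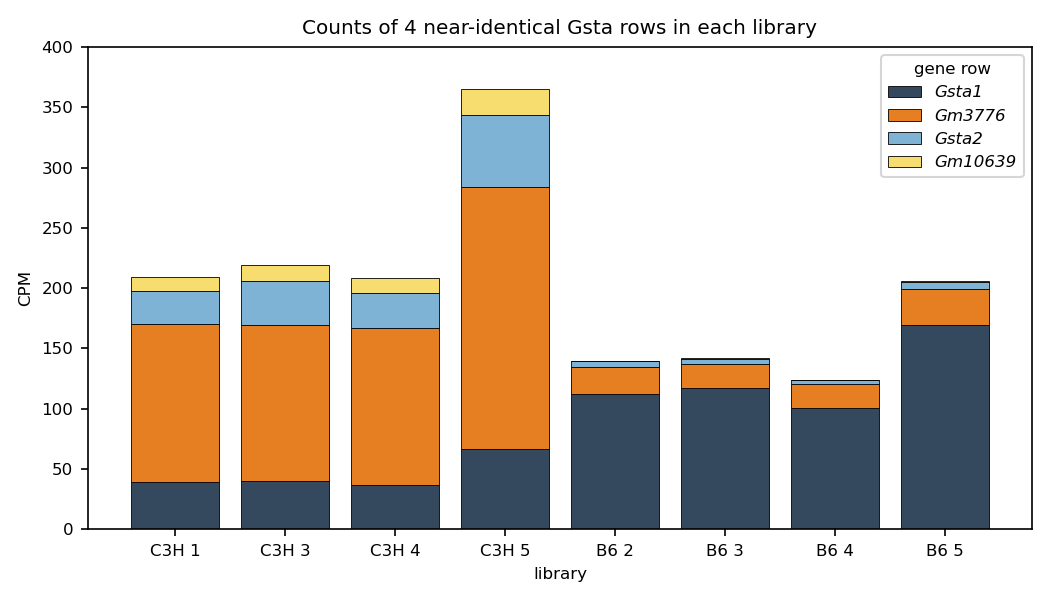
CPM (y axis, from 0) of Gsta1, Gm3776, Gsta2 and Gm10639, stacked, in each library, C3H left of B6. Gm3776 is the largest block in the 4 C3H bars and Gsta1 in the 4 B6 bars; total heights run from 208 to 365 CPM in C3H and from 124 to 206 CPM in B6.

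Mu-class GSTs lie together on chromosome 3 and conjugate aromatic epoxides and other electrophiles. All 7 had a positive log2 fold change, from 0.38 to 0.84, and 5 were called higher in C3H, none of them by 2-fold. Gstm2 had 51.4, 50.4, 48.8 and 55.7 CPM in C3H, against 32.0, 33.0, 27.2 and 46.9 CPM in B6, with a log2 fold change of 0.57 (SE 0.14, adjusted p = 0.0159). Gstm5 had 13.4, 13.5, 14.1 and 13.8 CPM in C3H, against 10.1, 9.48, 9.27 and 13.3 CPM in B6, with a log2 fold change of 0.38 (SE 0.12, adjusted p = 0.0407). In both, B6 5 lay close below the C3H range. Gstm4, Gstm6 and Gstm7 were higher by 0.64, 0.46 and 0.52 on the log2 scale with overlapping strains and adjusted p-values of 0.0288, 0.0391 and 0.0406. With 1 library left out, Gstm2 lost its call without B6 2 (adjusted p = 0.0538), and Gstm4, Gstm5, Gstm6 and Gstm7 lost theirs in 5 to 7 of the 8 fits, with adjusted p up to 0.115.

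The 2 most abundant mu-class genes were not called. Gstm1 had 201, 144, 213 and 251 CPM in C3H, against 75.2, 115, 69.6 and 191 CPM in B6, with a log2 fold change of 0.84 (SE 0.29, adjusted p = 0.0643). Gstm3 had 335, 291, 408 and 426 CPM in C3H, against 215, 229, 148 and 485 CPM in B6, with a log2 fold change of 0.44 (SE 0.30, adjusted p = 0.352). B6 5 was the highest B6 library for all 7 Gstm genes and all 4 Gsta genes, and for 17 of the 20 tested GSTs (85.0%), against 25.3% of all genes. Without B6 5, Gstm1 had an adjusted p of 0.00330 and Gstm3 of 0.00722, and 15 of 20 GSTs were called, 14 higher. Without B6 2 or without C3H 4, 7 were called.

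Among the other classes, Gstk1, a mitochondrial and peroxisomal GST, had 91.1, 93.6, 95.4 and 139.9 CPM in C3H, against 64.6, 60.0, 75.1 and 74.0 CPM in B6, with a log2 fold change of 0.62 (SE 0.14, adjusted p = 0.00971). Gstz1, the maleylacetoacetate isomerase of tyrosine breakdown, had 55.2, 59.6, 54.9 and 60.4 CPM in C3H, against 41.1, 45.1, 43.6 and 44.1 CPM in B6, with a log2 fold change of 0.40 (SE 0.07, adjusted p = 0.00222). Both were separated between strains, Gstz1 with a narrow spread within each. Gsto1, a thiol transferase that also reduces dehydroascorbate, was among the most abundant GSTs and was not called, at 444, 484, 588 and 657 CPM in C3H, against 391, 515, 427 and 553 CPM in B6 (adjusted p = 0.392). The theta-class Gstt1, Gstt2 and Gstt3, which act on small halogenated compounds, had log2 fold changes of 0.35, 0.23 and 0.20 and overlapping strains, and none was called (adjusted p 0.104 to 0.232). Gstt1 passed the threshold without C3H 1 (adjusted p = 0.0342) and Gstt3 without B6 5 (adjusted p = 0.0492).

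Pi-class Gstp1 had 238, 241, 278 and 289 CPM in C3H, against 172, 212, 178 and 224 CPM in B6, with a log2 fold change of 0.41 (SE 0.11, adjusted p = 0.0205). Gstp2 had 33.3, 35.8, 36.6 and 40.96 CPM in C3H, against 40.5, 47.9, 40.2 and 60.9 CPM in B6, with a log2 fold change of −0.37 (SE 0.13, adjusted p = 0.0716). Gstp1 did not overlap between strains, and Gstp2 overlapped with the higher values in B6. The call for Gstp1 was lost without C3H 4, B6 2 or B6 4 (adjusted p up to 0.0764), and Gstp2 passed the threshold without B6 2 or B6 4 (adjusted p down to 0.0407). Gstp3 averaged 3.95 CPM in C3H and 4.26 CPM in B6. Gstp1 and Gstp2, on chromosome 19, are 98.1% identical over the whole coding sequence. Their first 90 coding bases hold 6 differences, in capitals (GENCODE M21, 5′ to 3′), and no gap-free stretch of that length holds more.
Gstp1: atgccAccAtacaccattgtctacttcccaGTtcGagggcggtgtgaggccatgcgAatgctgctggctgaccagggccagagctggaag
Gstp2: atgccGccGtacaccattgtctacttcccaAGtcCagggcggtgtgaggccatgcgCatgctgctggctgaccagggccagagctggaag
A pseudogene copy on chromosome 1, Gstp-ps, had 675, 786, 574 and 650 counts in C3H, against 106, 120, 123 and 189 counts in B6. Summed over Gstp1, Gstp2 and Gstp-ps, the family had 285, 292, 329 and 347 CPM in C3H, against 216, 262, 221 and 288 CPM in B6, and these strains overlapped slightly. Of 50-base windows, 33.7% in Gstp1 and 54.3% in Gstp2 also occur in other genes. The results for Gstp1 and Gstp2 as single genes are therefore uncertain, since the handling of shared reads is not stated.

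The 26 members below the filter held few counts, and 14 of them had 0 in every library (Ugt1a10, Ugt2a1, Ugt2a2, Ugt3a1, the 8 Sult2a genes, Sult3a1 and Sult3a2). Over 4 libraries a strain, Ugt1a8 had 10 counts in C3H and 0 in B6, 3.46-fold higher with B6 set to a floor of 3 counts in all. Sult6b1 had 5 counts in C3H (1, 2, 2 and 0) and 0 in B6, 1.73-fold higher at that floor, and its strains overlapped. The floor covers counting error in B6 only, not that of the few C3H counts. Ugt1a5 had 33 counts in C3H and 9 in B6, and Ugt1a6b, whose coding sequence is 98.4% identical to that of Ugt1a6a, had 46 in C3H and 26 in B6. The remaining 8 ranged from 0 to 38 counts per strain.

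Other genes of conjugation were examined next, from supply of the conjugating groups to related enzymes, transporters, regulators and targets of those regulators. In 12 lists 85 were tested, of which 22 were called higher and 8 lower in C3H. Among all genes tested, 11.3% were called higher and 10.1% lower, and the counts per list below are to be read beside these shares. For glucuronidation 1 of 3 was higher, Slc35d1, a carrier of UDP-glucuronate into the endoplasmic reticulum, at 86.2, 87.4, 107 and 127 CPM in C3H, against 68.1, 67.0, 73.1 and 82.4 CPM in B6 (log2 fold change 0.49, SE 0.13, adjusted p = 0.0204). The dehydrogenase Ugdh and the pyrophosphorylase Ugp2, which make UDP-glucuronate and its precursor, had log2 fold changes of 0.14 and 0.09 and were not called (adjusted p = 0.530 and 0.559). For sulfation 0 of 9 tested were called. Papss2, which makes PAPS, had 1356, 1798, 2329.9 and 2643 CPM in C3H, against 2131, 1636, 1823 and 2022 CPM in B6 (log2 fold change 0.09, SE 0.20, adjusted p = 0.792). The phosphatase Bpnt1 and the sulfate carrier Slc13a1 had log2 fold changes of −0.01 and 0.14 (adjusted p = 0.981 and 0.698).

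For glutathione 1 of 11 was higher and 2 were lower. Gclc, the catalytic subunit of the rate-limiting enzyme of glutathione synthesis, had 119, 119, 127 and 147 CPM in C3H, against 36.2, 40.5, 58.0 and 43.4 CPM in B6 (log2 fold change 1.52, SE 0.14, adjusted p = 1.85e-05). Gsr, glutathione reductase, averaged 56.4 CPM in C3H and 81.2 CPM in B6 (adjusted p = 0.00597), and Chac1, which degrades glutathione, averaged 0.388 CPM in C3H and 0.923 CPM in B6. All 3 microsomal GSTs, membrane enzymes of another protein family, were higher: Mgst1 averaged 236 ± 12.8 CPM in C3H and 126 ± 11.9 CPM in B6 (SD, n = 4 each), with log2 fold changes of 0.90, 0.81 and 0.39 for Mgst1, Mgst2 and Mgst3. Of 6 genes that act in mercapturate steps, whether making or splitting them, 1 was higher, the deacylase Acy1, at 303, 333, 344 and 387 CPM in C3H, against 132, 142, 161 and 146 CPM in B6 (log2 fold change 1.23). The acetyltransferase Nat8 and the deacylase Acy3 had log2 fold changes of 0.37 and −0.32 and were not called.

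Other conjugating enzymes gave 2 higher of 9, the thiopurine methyltransferase Tpmt (log2 fold change 1.32) and the glycine transferase Glyat (3.35, at an average of 0.914 CPM in C3H and 0.0870 CPM in B6). The arsenic methyltransferase As3mt had a log2 fold change of 0.24 and was not called. Gusb, the lysosomal enzyme that splits glucuronides, was higher by 0.45 on the log2 scale (adjusted p = 0.0142). Among 9 conjugate transporters 3 were higher and 2 lower. Abcc3, a basolateral exporter of glucuronides, had 275, 315, 336 and 391 CPM in C3H, against 172, 194, 116 and 194 CPM in B6 (log2 fold change 0.96, SE 0.16, adjusted p = 0.00156). The bile acid exporter subunits Slc51a and Slc51b fell by 0.49 and 1.08 on the log2 scale, and the apical exporter Abcc2 was not called.

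Of 13 regulators 6 were higher and 1, Cdx2, was lower in C3H. Nr1h4, the bile acid receptor FXR, averaged 42.4 ± 6.18 CPM in C3H and 16.0 ± 2.29 CPM in B6, with a log2 fold change of 1.40 (SE 0.13, adjusted p = 1.74e-05). Nfe2l2, which encodes the oxidant-responsive factor Nrf2, averaged 397 ± 31.2 CPM in C3H and 244 ± 11.4 CPM in B6, with a log2 fold change of 0.70 (SE 0.09, adjusted p = 0.000160). Nr1i3, the xenobiotic receptor CAR, was higher by 0.76 on the log2 scale (adjusted p = 0.00187). Targets outside the members were counted for Nrf2, Ahr, and PXR with CAR, and not for FXR. Of 10 Nrf2 targets 2 were higher, Me1 (log2 fold change 1.73) and Nqo1 (0.54), and 1 was lower, Srxn1 (−0.48). Of 5 tested Ahr targets 1 was higher, Cyp1a2, at an average of 0.861 CPM in C3H and 0.327 CPM in B6. Cyp1a1 and Cyp1b1 had log2 fold changes of 0.65 and −0.18 and were not called. Of 6 targets of PXR and CAR, Cyp3a11 was higher (0.94) while Cyp3a13 and Cyp2c29 were lower (−1.27 and −3.74).

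Promoter windows were read for the binding motifs of Nrf2 and Ahr, since 21 of the 38 tested members were called higher in C3H. RefSeq (GRCm38.p6) gave 67 promoters for 56 of the 64 members. The core of the antioxidant response element, TGACNNNGC on either strand, occurred in 3 of the 25 promoters of members higher in C3H (12.0%), against 12.4% of 32851 promoters of all genes. The core of the xenobiotic response element, GCGTG on either strand, occurred in 3 of the 25 (12.0%), against 32.4% of all promoters. Among 18 promoters of tested members that were not called, TGACNNNGC occurred in 0 and GCGTG in 7 (38.9%). The windows of Gsta3 (chr1:21240335-21240634, plus strand) and Gstm5 (chr3:107895604-107895903, plus strand), with the start after base 250, are shown because they hold a TGACNNNGC match, beginning 121 and 42 bases before the start; capitals mark matches to either motif, and in Gstm5 a GCGTG match overlaps the longer one.
Gsta3: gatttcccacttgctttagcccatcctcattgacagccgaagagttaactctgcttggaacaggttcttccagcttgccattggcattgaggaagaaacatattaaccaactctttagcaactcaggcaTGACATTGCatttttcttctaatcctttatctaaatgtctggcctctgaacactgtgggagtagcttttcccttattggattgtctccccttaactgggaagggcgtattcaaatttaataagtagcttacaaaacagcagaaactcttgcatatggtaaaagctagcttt
Gstm5: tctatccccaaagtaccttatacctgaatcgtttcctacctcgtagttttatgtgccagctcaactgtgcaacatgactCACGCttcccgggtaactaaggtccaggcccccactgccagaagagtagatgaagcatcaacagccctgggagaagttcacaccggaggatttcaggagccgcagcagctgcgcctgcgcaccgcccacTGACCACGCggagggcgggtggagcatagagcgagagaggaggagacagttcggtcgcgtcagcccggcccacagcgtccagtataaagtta
The third match lay in a second promoter of Gstm7. These matches describe the letters only.

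Other cell types were compared through their marker lists. Of the 6 hepatocyte markers 3 were tested and 0 called, with sums of 3.53 to 51.4 CPM in C3H, against 4.88 to 6.24 CPM in B6. The highest sum was in C3H 3, where Cyp2e1 alone had 48.3 CPM. Fgb was at 0 in all libraries and Alb stayed under 1 CPM in both strains. The part of hepatocyte markers in the members' differences was not tested. Smooth muscle and stromal markers had 0 of 7 called, crypt markers 0 of 6, and tuft and secretory markers 2 higher and 2 lower of 8. Immune markers gave 1 higher and 4 lower of 8, with sums of 1015 to 1272 CPM in C3H, against 1417 to 1664 CPM in B6. Markers of the distal small intestine gave 1 higher and 2 lower of 5 tested, with sums of 2291 to 3267 CPM in C3H, against 3635 to 4511 CPM in B6, while those of the proximal part gave 2 higher of 7. The part of position along the intestine and of immune content in the members' differences was not tested.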

How the data were processed

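Jejunal RNA came from the Qiagen miRNeasy extraction, and libraries were made with the Illumina Stranded mRNA kit from 200 ng (RIN over 7), per the labels' protocols. STAR 2.7.9a, HTSeq 2.0.2 and GRCm39 are named in the submitters' processing notes. The authors deposited whole-number counts per Ensembl gene, not normalized. The annotation release, strand setting and handling of reads shared by several genes are not stated in the labels or the file header. GRCm39 is built from C57BL/6J, and how sequence differences of C3H bear on its counts was not tested.

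Symbols, chromosomes, gene order, exon lengths and coding sequences came from GENCODE M21 (GRCm38), which named 52000 of 56941 identifiers. Each sample was placed in its strain by its title. Counts were fitted on the whole table with edgeR 4.0.16 (R 4.3.3; TMM, filterByExpr with a minimum count of 10, quasi-likelihood test). Standard errors are the fold change divided by the root of F. The fit was also run on counts simulated gene by gene from its own dispersions. Such counts hold none of the effects of single libraries seen here, and the outcome is not given. No libraries of a strain agreed within sampling noise. Intervals and floors of 3 counts cover counting error only, and the floors only that of the strain at 0. Named were members with an adjusted p under 0.05 or a mean of at least 5 CPM in either strain, and of each supporting list the 3 with the smallest adjusted p (the most abundant, where no gene passed); Ugt1a5, Ugt1a6b, Sult1a1, Sult4a1, Gstp3, Gm3776, Gm10639, Gstp-ps, Abcc2, Cdx2, Cyp2e1, Fgb and Alb were named after their values were seen. Members and lists were chosen with earlier results of these data known. Of 157 list genes 155 were matched. Windows of 50 bases were compared between all transcripts. Alternatives used DESeq2 1.42.0, limma-voom 3.58.1, other scalings, filters, thresholds and sets of libraries.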

Additional observations from a re-analysis of the deposited data

Results flagged for a closer look

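In 8 of the 80 sets of 4 libraries screened, the highest library stood apart from the other 3 by more than Dixon's 95% critical value for the gap over the range; chance flags about 1 in 20. All but 1 of these were C3H 5: Gsta1 at 66.2 CPM, Gsta3 at 28.9 CPM, Gsta4 at 304 CPM, Gstk1 at 139.9 CPM, Ugt1a9 at 39.8 CPM, Ugt2b36 at 37.7 CPM, and the sum of the Gsta1 copies at 365 CPM. In B6, replicate 5 stood apart for Gsta4 at 127 CPM. Without C3H 5, 18 members were called, 17 higher and 1 lower, and no called member changed direction.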

How the results depend on the processing

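Of the settings tried, those that changed a count of calls by over 1.5 times were these. Without the 4 libraries richest in pancreatic transcripts, 8 members were called, 4 UGTs, 1 SULT and 3 GSTs, and 15 supporting genes; this leaves 2 libraries per strain. At a threshold of 0.01, 6 GSTs and 19 supporting genes were called. Leaving out members over 90% identical in coding sequence to another member left 14 called, 4 of them UGTs; leaving out members that share over 25% of their windows left 12, 2 of them UGTs; both were chosen after seeing the data. SULT calls numbered 2 with upper-quartile factors, library totals or no filter, and also without C3H 1 or without B6 4. They also numbered 2 in the 6 libraries of replicates 3, 4 and 5, with or without a replicate block. With a mean of at least 100 counts, 0 of 5 were called, which removed Sult1c2. GST calls numbered 7 without C3H 4 or without B6 2, and 6 in those 6 libraries without the block. The share of Ugt2b34 among UGTs was 23.5% in C3H and 31.2% in B6 with unshared exon length. Leaving out 1 library gave 17 to 25 called members, 9 to 9 UGTs, 1 to 2 SULTs, 7 to 15 GSTs and 21 to 32 supporting genes. The summed CPM ratio then ran from 1.13 to 1.29 for UGTs, 0.945 to 1.12 for SULTs and 1.20 to 1.47 for GSTs. Shares of all genes called in the fits with fewer libraries are not given here.

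Signs changed for uncalled genes near 0. Sult1d1 was 0.017 with library totals, 0.161 with the replicate block and 0.166 without it, and −0.140 to 0.083 without 1 library. Ugt2a3 was 0.046 with library totals, 0.00044 with limma-voom, 0.063 with the block, 0.056 without it, and −0.094 to 0.110 without 1 library. Ugt2b34 was −0.022 without the pancreas-rich libraries and −0.031 to 0.128 without 1 library. The cause was not tested. Gstm4, Gstm5, Gstm6 and Gstm7 lost their calls in 5 to 7 of 8 such fits, and Gstp1 without C3H 4, B6 2 or B6 4.

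Strains share replicate numbers 3, 4 and 5. Deviations of same-numbered libraries correlated at 0.00576, 0.180 and −0.0517. Pairs with different numbers ran from −0.245 (C3H 3 with B6 4) to 0.370 (C3H 3 with B6 2). So few same-numbered pairs cannot show whether the numbers mark a shared step, and what they stand for was not tested. In those 6 libraries 23 members were called with the replicate block (9 UGTs, 2 SULTs, 12 GSTs) and 17 without it (9, 2 and 6). Identity of proteins was not compared; coding identity was used. Scarce genes under the filter could not be tested at this depth.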
